A study of Homo sapiens with 4 samples.

Results

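The 33 genes described here encode parts of the actin cytoskeleton, the transcription factor SRF, and the factors, regulators and targets of the YAP/TEAD pathway. They were chosen by function from a list of names, with earlier results of these data known. All 33 were found by their NCBI Gene number among the 46427 genes of the tables. The samples were Huh7 and HepG2, long-established human liver cancer lines labelled as wild type, which the study describes as hepatocellular carcinoma lines. Both were grown in DMEM with serum and were transfected for 5 h, with a lipid reagent, with 20 nM of a non-targeting siRNA (NC-siRNA) or of 1 siRNA against the ubiquitin ligase gene COP1 (COP1-siRNA), and RNA was taken 48 h later. There was 1 library for each line and siRNA, 4 in all, and a single siRNA sequence was used against COP1, so loss of COP1 and any other effect of that sequence cannot be told apart. No difference within a line has a replicate check.

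Actin filaments carry myosin II motors and are lined by tropomyosins, calponins and transgelins, which set where myosin can pull. Cells read the state of these filaments back into the nucleus along a pair of routes. Free actin monomers hold back the MRTF cofactors of SRF, which binds CArG boxes in the genes of many filament proteins. Tension on the filaments lets YAP and TAZ (WWTR1) enter the nucleus, where they act through TEAD factors, while the Hippo kinases LATS1 and LATS2 keep them out. In smooth muscle and myofibroblasts ACTA2, TAGLN and CNN1 are classic products of the SRF route, and CCN1, CCN2 and ANKRD1 are widely used readouts of YAP.

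Levels are given as TPM (the abundance of a transcript among all transcripts), which is corrected for gene length and sums to 1000000 in each library. In Huh7 COP1 itself had 19.7 TPM with the control and 6.18 TPM after knockdown, and in HepG2 26.9 and 16.1 TPM, so that 31.4% and 59.9% of its level was left. Read counts were not given, so the absolute depth is unknown, but the ratio of coverage to FPKM put the COP1-siRNA library at 1.14 times the depth of the NC-siRNA library in Huh7 and at 1.28 times in HepG2. Hepatocyte lineage markers were present in both lines, with a summed level of 25631 and 23998 TPM in Huh7 (NC-siRNA first, as below) and 2931 and 3448 TPM in HepG2. Of 10 fibroblast and smooth muscle markers, 6 stayed under 1 TPM in every library, and the smooth muscle genes MYH11 and DES and the fibroblast gene DCN were at or near 0. The summed level of these 10 was 125.6 and 126.0 TPM in Huh7, where LUM alone gave 121 TPM with each siRNA, and 5.91 and 6.19 TPM in HepG2. The endothelial list summed to 5.08 and 7.36 TPM in Huh7 and to 0.275 and 0.416 TPM in HepG2. The leukocyte list summed to 62.7 and 58.6 TPM in Huh7 and to 15.9 and 17.8 TPM in HepG2. Of its 4 genes, PTPRC and CD3E were at 0 in every library, so the other genes, CD14 and CD68, gave these sums. In such bulk RNA, fewer cells with a transcript and less of it per cell cannot be told apart.

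Some member promoters contain matches to motifs of the SRF and TEAD factors named above. They are printed for the filament genes TPM4 and CNN2, which hold a CArG box, and for the YAP targets CCN2 and ANKRD1, which hold the TEAD motif. Each runs 5′ to 3′ on the strand of its gene from 250 bases before to 50 bases after the start site in RefSeq (GRCh38.p14). Capitals mark CArG boxes, the TEAD motif (GGAATG) and the AP-1 motif (TGANTCA), searched on both strands.
TPM4, chr19:16067288-16067587, plus strand: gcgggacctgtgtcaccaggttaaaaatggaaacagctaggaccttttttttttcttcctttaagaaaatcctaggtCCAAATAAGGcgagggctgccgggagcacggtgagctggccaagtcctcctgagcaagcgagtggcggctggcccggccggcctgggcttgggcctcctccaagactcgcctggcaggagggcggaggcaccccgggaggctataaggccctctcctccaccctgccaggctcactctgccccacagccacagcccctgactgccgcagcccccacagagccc
CNN2, chr19:1026358-1026657, plus strand: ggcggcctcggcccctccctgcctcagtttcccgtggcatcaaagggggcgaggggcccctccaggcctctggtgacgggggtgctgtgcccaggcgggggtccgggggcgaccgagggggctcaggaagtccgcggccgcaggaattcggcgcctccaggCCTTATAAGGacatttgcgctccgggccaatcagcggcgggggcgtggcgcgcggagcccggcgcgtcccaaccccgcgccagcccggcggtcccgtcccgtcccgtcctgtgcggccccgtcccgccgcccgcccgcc
CCN2, chr6:131951323-131951622, minus strand: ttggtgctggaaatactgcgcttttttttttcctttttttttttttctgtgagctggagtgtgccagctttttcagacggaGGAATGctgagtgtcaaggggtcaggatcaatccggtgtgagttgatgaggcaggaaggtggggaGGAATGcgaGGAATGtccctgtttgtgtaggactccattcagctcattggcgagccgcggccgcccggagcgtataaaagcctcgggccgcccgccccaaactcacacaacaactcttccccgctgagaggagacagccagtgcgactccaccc
ANKRD1, chr10:90921038-90921337, minus strand: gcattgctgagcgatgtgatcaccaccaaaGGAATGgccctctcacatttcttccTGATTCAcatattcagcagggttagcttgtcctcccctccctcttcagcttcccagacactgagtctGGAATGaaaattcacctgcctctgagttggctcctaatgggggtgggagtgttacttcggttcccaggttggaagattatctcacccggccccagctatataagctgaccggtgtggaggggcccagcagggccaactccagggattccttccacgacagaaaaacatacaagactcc
The CArG box began at −173 from the start site in TPM4 and at −89 in CNN2. It was also present in ACTG2, SRF, ACTN1 and FLNA, which makes 6 of the 27 member genes with a promoter in the table (22.2%), against 1.60% of all 27305 genes there. The TPM4 window is 1 of 3 for that gene, and the other two hold no exact CArG box. The TEAD motif was found in 14 of the 27 genes (51.9%, against 16.7% of all genes), 3 times in CCN2 and 2 times in ANKRD1. The AP-1 motif was found in 4 of 27 (14.8%, against 9.37%), among them ANKRD1. Counted per window, 13.3% of the 45 member windows held a CArG box, against 1.29% of all 35116. For the TEAD motif the shares were 33.3% and 14.0%, and for the AP-1 motif 11.1% and 7.71%. Many members were chosen as known SRF or YAP/TEAD targets, so the shares of those motifs are a description and not independent evidence. These are matches of letters and say nothing of which factor was bound.

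The members together held 0.448% of all TPM in Huh7 with NC-siRNA and 0.534% with COP1-siRNA, against 0.151% and 0.168% in HepG2. In Huh7 30 members reached 1 TPM with either siRNA, and in HepG2 31 did with NC-siRNA and 30 with COP1-siRNA. The members that reached no such level were muscle genes. ACTG2, the enteric smooth muscle actin, was listed at 0 in all 4 libraries. ACTA2, smooth muscle α-actin, was listed at 0 in both Huh7 libraries and stood at 11.1 and 15.4 TPM in HepG2. ACTA2 shares 22969 bases with FAS on the opposite strand, which was itself listed at 0 in Huh7 and at 4.35 and 3.80 TPM in HepG2. LMOD1, a leiomodin that seeds filaments in smooth muscle, was listed at 0 in Huh7 and at 1.10 and 0.814 TPM in HepG2.

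**Figure D1:**
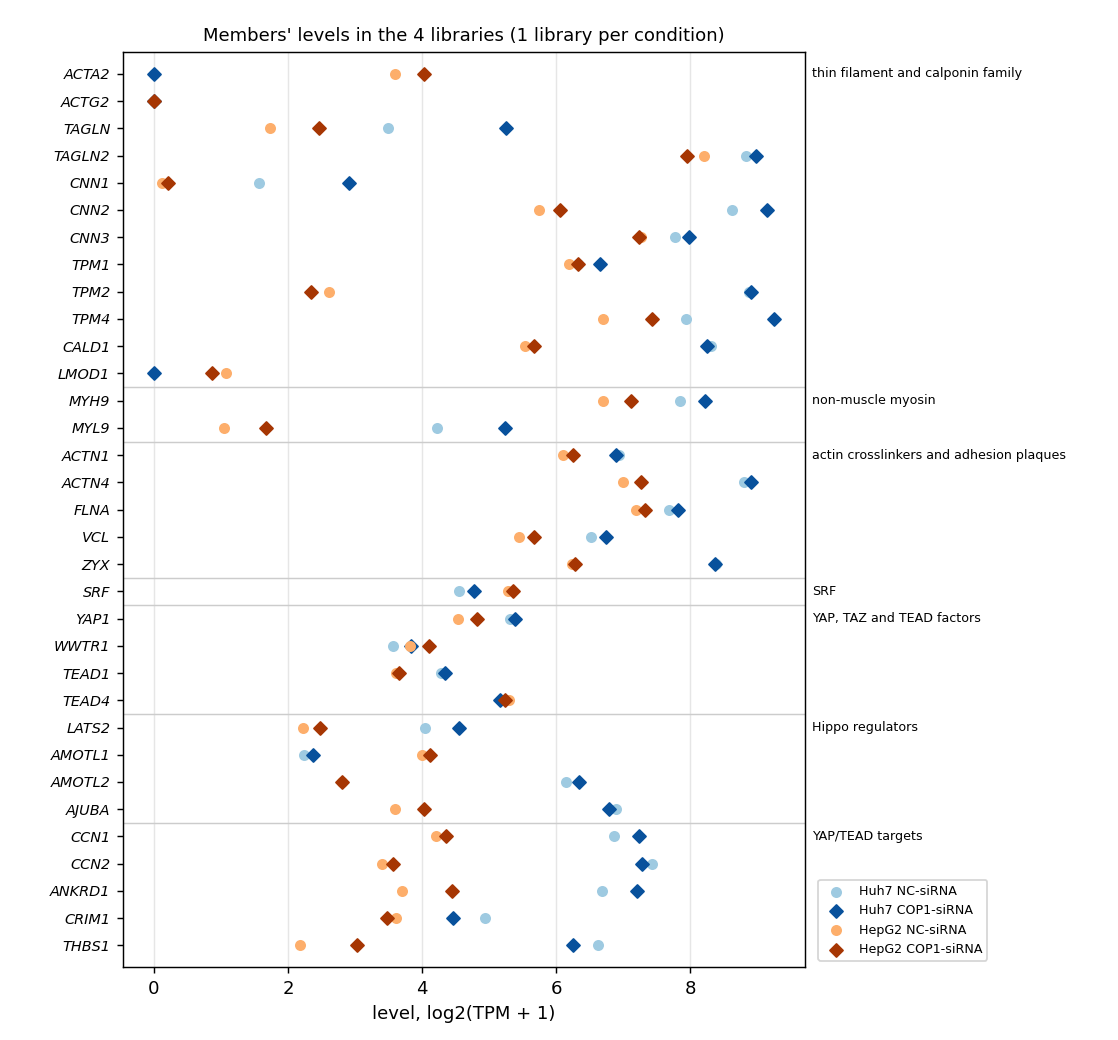
Level of each member in the 4 libraries as log2(TPM + 1), with circles for NC-siRNA and diamonds for COP1-siRNA, Huh7 in blue and HepG2 in orange and brown, and 1 library per point. The pale and dark points of a line lie close together for most genes, and for most the blue points lie right of the others. For SRF, AMOTL1 and TEAD4 the blue points lie to the left, as they do for WWTR1 with each siRNA. ACTA2 and LMOD1 are at 0 in Huh7.

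Most members were higher in Huh7 than in HepG2, whichever siRNA the cells had received. Fold changes here and below are log2((TPM + 1)/(TPM + 1)), which understates the change of genes with low levels, and a gene was compared where it reached 1 TPM in at least 1 of the libraries compared. With NC-siRNA, 19 of 32 members were at least 2-fold higher in Huh7 than in HepG2 and 3 were at least 2-fold lower, beside 14.7% and 27.9% of all 15055 genes. With COP1-siRNA 19 of 31 were higher and 2 lower, beside 14% and 26% of 15126 genes. The member median was 1.28 with NC-siRNA and 1.63 with COP1-siRNA, while the median of all genes was −0.37 and −0.35. With both siRNAs, 18 of 31 members were at least 2-fold higher in Huh7 (12.8% of all genes) and ACTA2 and AMOTL1 were at least 2-fold lower (23.6%). The split of all genes past 2-fold depended on the scaling: 34.6% of them were higher in Huh7 with NC-siRNA, and 47.6% were under median-of-ratios scaling, which left the median of all genes at −0.07 and that of the members at 1.57.

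limma, fitted over the 4 libraries with the siRNA as covariate, gave an adjusted p (Benjamini-Hochberg over 14741 genes) under 0.05 for 26 members higher in Huh7 and 3 lower, of 31 tested. The same call was made for 27.8% of all genes as higher and 51.8% as lower. Here the NC-siRNA and COP1-siRNA libraries stood in for replicates of a line, with 1 residual degree of freedom, so these p-values measure only the spread between these libraries.

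TPM2, the β-tropomyosin, had a wide gap between the lines, with 467 and 479 TPM in Huh7 and 5.10 and 4.09 TPM in HepG2. Its line effect in limma was 6.41 ± 0.10 (SE, log2, adjusted p = 1.02e-06). The libraries of each line differed by little beside that gap. CCN2, a matricellular YAP target also known as CTGF, had 172 and 155 TPM in Huh7 and 9.52 and 10.8 TPM in HepG2 (3.88 ± 0.11, limma adjusted p = 2.64e-06). THBS1, the matricellular protein thrombospondin-1, had 97.2 and 75.3 TPM against 3.54 and 7.17 TPM (3.83 ± 0.27, limma adjusted p = 4.14e-05). For both genes every Huh7 library was above every HepG2 library, as it was for all 5 YAP/TEAD targets.

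The other targets followed the same order. ANKRD1, an ankyrin repeat protein also known from heart muscle, had 102 and 146 TPM in Huh7 and 12 and 20.7 TPM in HepG2. CCN1, the matricellular protein CYR61, had 115 and 149 TPM against 17.5 and 19.4 TPM. CRIM1, a transmembrane protein that binds BMPs, had 29.7 and 21.0 TPM against 11.2 and 10.1 TPM, the smallest gap of the 5.

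The regulators of YAP were split between the lines. AMOTL2, an angiomotin that tethers YAP, stood at 69.5 and 79.6 TPM in Huh7 and at 5.99 TPM in both HepG2 libraries (line effect 3.43 ± 0.10, limma adjusted p = 3.29e-06). AMOTL1, its relative, ran the other way, with 3.74 and 4.18 TPM in Huh7 and 15.0 and 16.4 TPM in HepG2 (−1.76 ± 0.12, limma adjusted p = 3.89e-05). AJUBA, a LIM protein that restrains LATS, had 118 and 110 TPM in Huh7 against 11.1 and 15.3 TPM in HepG2. The kinase gene LATS2, itself a YAP target, had 15.5 and 22.4 TPM against 3.68 and 4.58 TPM.

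The factors had smaller line effects than the 5 targets, whose estimates ran from 1.16 (CRIM1) to 3.88 (CCN2). YAP1 had 38.5 and 40.9 TPM in Huh7 and 22.3 and 27.2 TPM in HepG2, a line effect of 0.67 ± 0.10 (limma adjusted p = 0.000944). TEAD1 had 18.4 and 19.2 TPM in Huh7 and 11.3 and 11.6 TPM in HepG2 (0.67 ± 0.10, limma adjusted p = 0.00137). SRF was lower in Huh7, with 22.5 and 26.2 TPM against 37.9 and 39.8 TPM (−0.66 ± 0.09, limma adjusted p = 0.000893), whereas 9 of the 10 thin filament and calponin family members tested were higher there and 1, ACTA2, was lower. WWTR1 (10.8 and 13.2 TPM in Huh7, 13.0 and 16.2 TPM in HepG2) and TEAD4 (35.5 and 34.9 TPM against 38.1 and 36.8 TPM) did not pass in limma (adjusted p = 0.0655 and 0.388), and both turned to the other direction under median-of-ratios scaling, TEAD4 also under upper-quartile scaling with COP1-siRNA. With FPKM in place of TPM, 4 members passed in limma as lower in Huh7 in place of 3, so WWTR1 or TEAD4 passed there.

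Among the structural genes, MYL9, a regulatory light chain of myosin II, had 17.6 and 36.8 TPM in Huh7 and 1.07 and 2.18 TPM in HepG2 (3.37 ± 0.15, limma adjusted p = 8.64e-06). CNN2, the broadly expressed calponin, had 393 and 566 TPM against 52.5 and 65.7 TPM. CALD1, caldesmon, had 317 and 302 TPM against 45.2 and 49.8 TPM. All 3 were higher in both Huh7 libraries than in either HepG2 library. The same held for TAGLN, CNN1 and TPM4, whose limma line effects were 2.27 ± 0.24, 2.08 ± 0.29 and 1.53 ± 0.14, and whose levels are given with their response to the siRNA.

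The 5 crosslinkers and adhesion plaque proteins were all higher in Huh7, with limma line effects from 0.49 (FLNA) to 2.12 (ZYX). ACTN4, a non-muscle α-actinin, had 447 and 477 TPM against 126 and 153 TPM, and the adhesion protein gene ZYX had 333 and 330 TPM against 74.3 and 76.9 TPM. VCL, vinculin, had 90.4 and 106 TPM against 42.5 and 49.8 TPM, and the myosin heavy chain gene MYH9 had 229 and 297 TPM against 103 and 138 TPM. ACTN1 (121 and 118 TPM against 67.6 and 75.0 TPM) and FLNA, filamin A (204 and 223 TPM against 145 and 159 TPM), stayed under 2-fold. TAGLN2 (456 and 506 TPM against 293 and 246 TPM), CNN3 (217 and 252 TPM against 153 and 150 TPM) and TPM1 (79.2 and 99.7 TPM against 71.8 and 79.1 TPM) were under 2-fold apart with NC-siRNA, and TAGLN2 passed 2-fold with COP1-siRNA (1.04). TPM1 had a line effect of 0.24 ± 0.09 (limma adjusted p = 0.0424), and over the alternatives this adjusted p ran up to 0.131, above the threshold in FPKM, by coverage, without a minimum TPM and without trend.

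**Figure D2:**
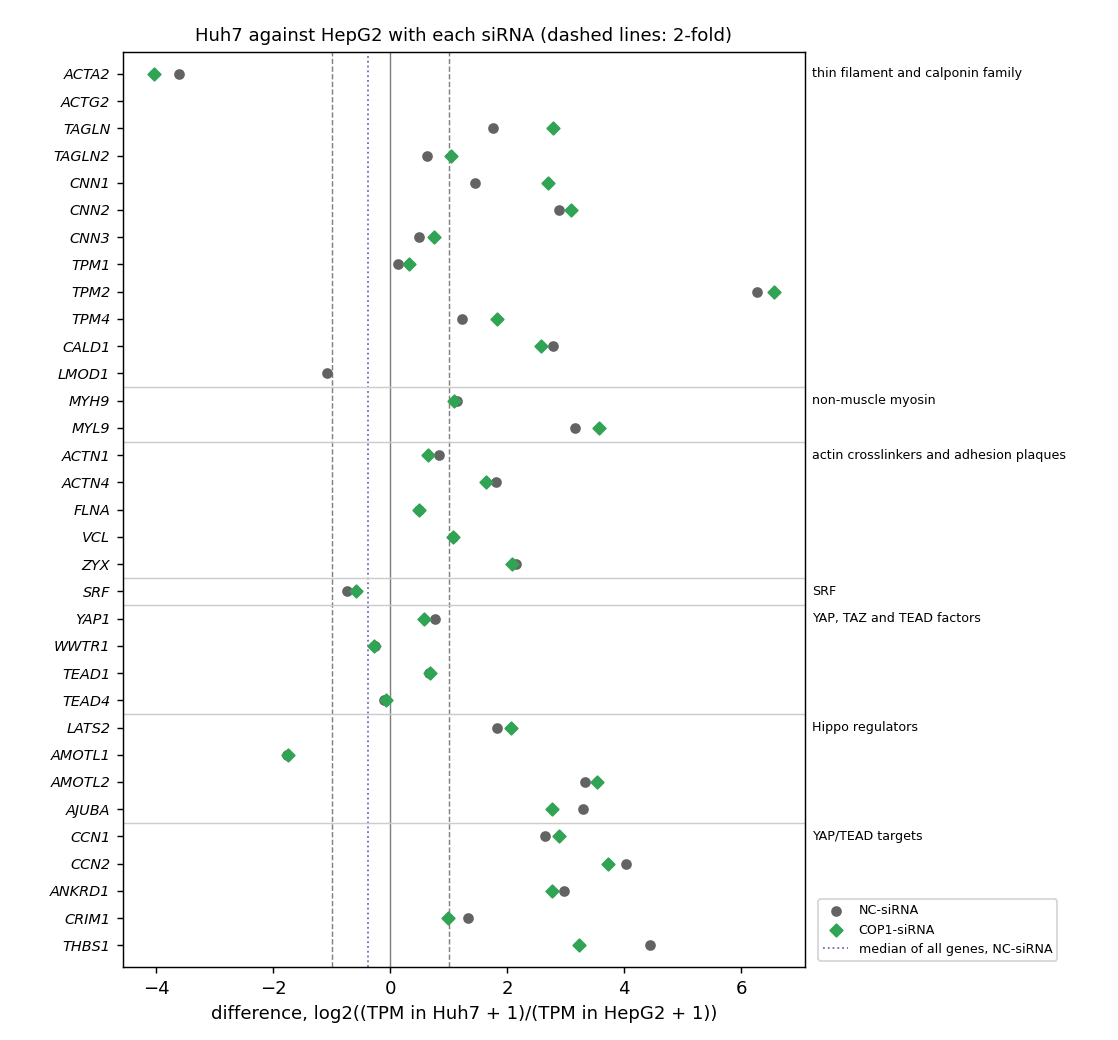
Difference between Huh7 and HepG2 of each member, as log2((TPM + 1)/(TPM + 1)), with grey circles for NC-siRNA and green diamonds for COP1-siRNA, dashed lines at 2-fold and a dotted line at the median of all genes with NC-siRNA (−0.37). Values right of 0 are higher in Huh7: TPM2 lies farthest right and ACTA2, listed at 0 in Huh7, farthest left on this scale, and the 5 YAP/TEAD targets all lie right of 0.

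In some families the main gene differed between the lines. These families were drawn up after the values were seen, and their other genes are not among the 33. Of the summed TPM of the angiomotin genes, AMOTL2 made up 93.8% in Huh7 with NC-siRNA, whereas AMOT, the founding member, made up 87.5% in HepG2. Of the LATS kinases, LATS2 gave 57.6% in Huh7 and 15.2% in HepG2. Calponin TPM came mostly from CNN2 in Huh7 (64.3%) and mostly from CNN3 in HepG2 (74.4%). With NC-siRNA the largest tropomyosin share was that of TPM2 in Huh7 (41.4%) and of TPM3 in HepG2 (59.8%). The largest TEAD share was that of TEAD2 in Huh7 (34.3%) and of TEAD4 in HepG2 (46.4%), whereas with COP1-siRNA TEAD4 led in both lines (32.6% and 46.2%). The cytoplasmic actin genes also differed: ACTB stood at 7791 and 6399 TPM in Huh7 and at 2816 and 2754 TPM in HepG2, and ACTG1 at 1499 and 1881 TPM in Huh7 and at 3558 and 3834 TPM in HepG2. ACTB thus gave 83.9% of actin TPM in Huh7 and 44.1% in HepG2 with NC-siRNA. ACTA2 gave 0.174% there. In other families the same gene led in both lines with NC-siRNA: TAGLN2 gave 97.8% of transgelin TPM in Huh7 and 99.2% in HepG2, MYH9 75.0% and 67.0% of myosin II heavy chain TPM, ACTN4 78.6% and 65.1% of α-actinin TPM, FLNA 75.1% and 73.9% of filamin TPM and YAP1 78.1% and 63.1% of the TPM of YAP1 and WWTR1.

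**Figure D3:**
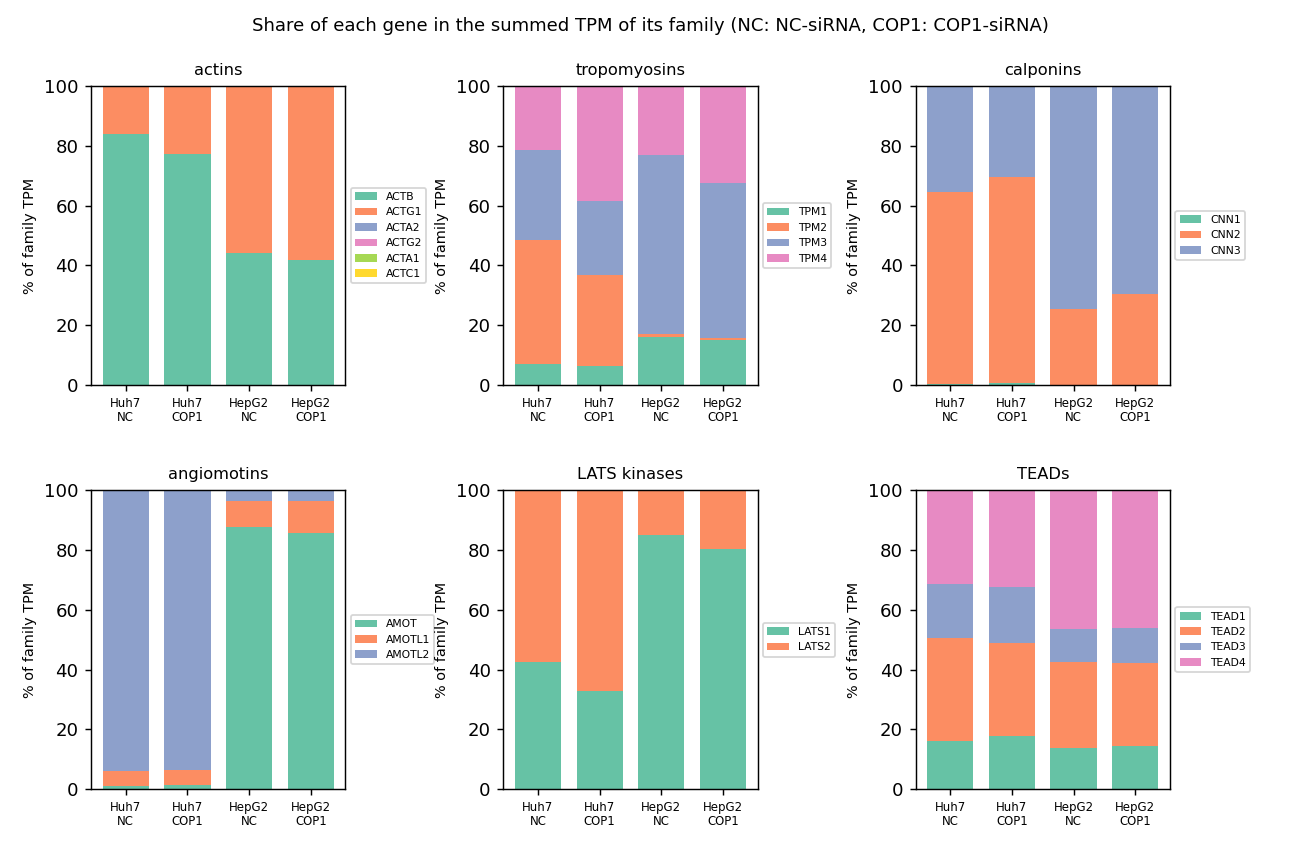
Share of each gene in the summed TPM of its family, in percent, for 6 families in the 4 libraries (NC: NC-siRNA, COP1: COP1-siRNA), 1 stacked bar per library. With NC-siRNA the main gene of each of the 6 families differs between Huh7 and HepG2. The TPM4 part of the tropomyosin bars is taller with COP1-siRNA in both lines.

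With COP1-siRNA, 4 genes of the actin and myosin filaments rose at least 2-fold in Huh7 and none of the members fell that far. These were TAGLN, CNN1, TPM4 and MYL9, that is 4 of 30 members tested, beside 0.638% of all 13000 genes tested as higher and 0.446% as lower. TAGLN was already listed by the study as raised in these same libraries, so its part in this and later counts is not independent evidence. In HepG2 none of 31 members passed 2-fold on this scale in either direction, beside 0.540% and 0.394% of 14456 genes. In plain TPM, without the added 1, MYL9 and THBS1 did pass there, at 2.04 and 2.02 times, both from low levels. Small differences leaned upward in both lines: 22 of 30 members were above 0 in Huh7 (49.9% of all genes) and 24 of 31 in HepG2 (48.3%), with medians of 0.17 and 0.15 beside −0.001 and −0.008 for all genes. Of the 29 members tested in both lines, 17 were higher in both (29.2% of all genes), 2 were lower in both (31%) and 10 differed in direction.

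TAGLN encodes transgelin, a calponin family protein that bundles actin filaments in smooth muscle. In Huh7 it had 10.2 TPM in the control and 36.9 TPM in the knockdown, and 2.32 and 4.53 TPM in HepG2. The COP1-siRNA library was the higher one in each line, with log2 differences of 1.76 (Huh7) and 0.74 (HepG2), or 3.61 and 1.95 times in plain TPM. TAGLN (gene 6876, chromosome 11, 117199294 to 117207465, plus strand, GRCh38) was listed by the study as raised in these same libraries, so its change is a description and not independent evidence. Of its length, 6310 bases overlap PCSK7 on the opposite strand, which did not move with it, at 13.7 and 11.4 TPM in Huh7 and 15.0 and 15.5 TPM in HepG2.

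TPM4, a tropomyosin of non-muscle cells, was the most abundant of the 4. It had 244 and 607 TPM in Huh7 and 103 and 170 TPM in HepG2, 1.31 and 0.72 on the log2 scale. It lies on chromosome 19, 16067507 to 16103005, and its first start site has the CArG box printed above. The CNN1 window held no CArG box, and TAGLN and MYL9 had no promoter to search. Whether the box bears on the change of TPM4 was not tested. The TPM4 share of all tropomyosin TPM, control first, was 21.6% and 38.4% in Huh7 and 23.0% and 32.5% in HepG2. Its relatives moved less: TPM1 by 0.33 and 0.14, and TPM2 by 0.04 and −0.26.

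MYL9 had 17.6 and 36.8 TPM in Huh7 and 1.07 and 2.18 TPM in HepG2. The differences were 1.03 and 0.62 on the log2 scale, and the plain ratios were alike at 2.1 and 2.04. CNN1, the smooth muscle calponin, went from 1.96 to 6.54 TPM in Huh7 (1.35) and stood at 0.0842 and 0.159 TPM in HepG2, too low to be compared there. TAGLN, TPM4 and MYL9 were the 3 members over 1.5-fold higher in both lines, beside 0.351% of 11970 genes. With a threshold of 1.5-fold, ANKRD1 and THBS1 joined them in HepG2, where 5 members passed as higher (2.56% of all genes), and the count in Huh7 stayed at 4 (2.8% of all genes).

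Other filament and adhesion genes showed smaller differences. CNN2 had 393 and 566 TPM in Huh7 and 52.5 and 65.7 TPM in HepG2 (0.53 and 0.32). MYH9, the main non-muscle myosin II heavy chain, went from 229 to 297 TPM and from 103 to 138 TPM (0.37 and 0.42). VCL differed by 0.23 and 0.22, FLNA by 0.13 and 0.13, and ACTN4 by 0.09 and 0.28, the last of these 0.06 by coverage in HepG2. Others had no common direction: TAGLN2 gave 0.15 and −0.26, CNN3 0.22 and −0.03, CALD1 −0.07 and 0.14, ACTN1 −0.04 and 0.15, and ZYX −0.01 and 0.05, and the Huh7 values of ACTN1 and ZYX changed sign in FPKM and that of ZYX also under upper-quartile scaling. In HepG2 ACTA2 differed by 0.43 and LMOD1 by −0.21.

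**Figure D4:**
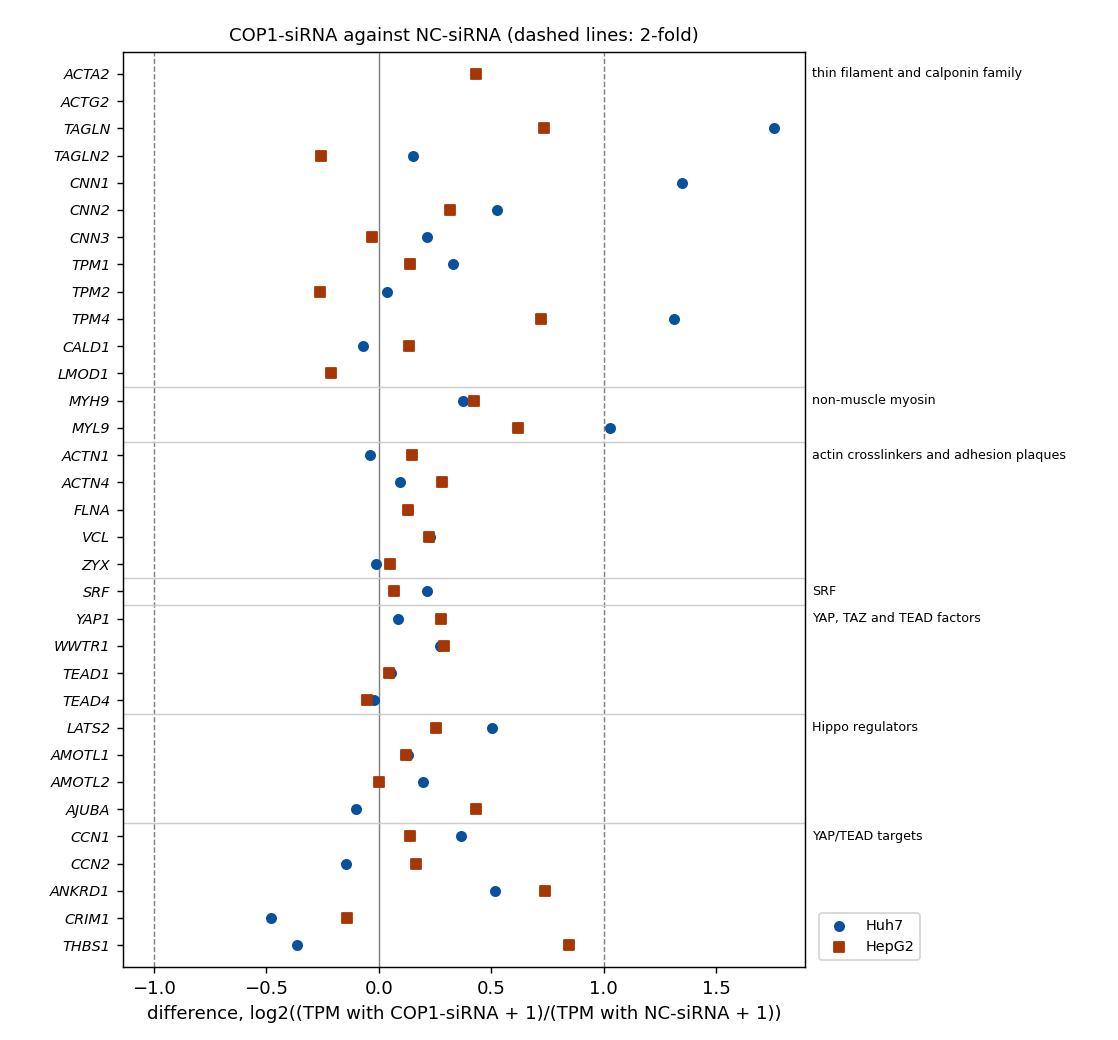
Difference between COP1-siRNA and NC-siRNA of each member in Huh7 (blue circles) and HepG2 (brown squares), as log2((TPM + 1)/(TPM + 1)), 1 library per condition, with dashed lines at 2-fold. TAGLN, CNN1, TPM4 and MYL9 pass the right dashed line in Huh7, no HepG2 point passes either line, and a gene under 1 TPM in both libraries of a line has no point there.

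The 5 targets of YAP had no common direction. ANKRD1 had 102 and 146 TPM in Huh7 and 12 and 20.7 TPM in HepG2 (0.52 and 0.74). CCN1 differed by 0.37 and 0.14, while CCN2 differed by −0.15 and 0.17. CRIM1 went from 29.7 to 21.0 TPM and from 11.2 to 10.1 TPM, a difference of −0.48 and −0.14. THBS1 had 97.2 and 75.3 TPM in Huh7 and 3.54 and 7.17 TPM in HepG2 (−0.36 and 0.85). THBS1 was therefore lower with COP1-siRNA in Huh7 and higher in HepG2, and whether the lines differ in this was not tested. Of the 5 targets, 2 were above 0 in Huh7 (49.9% of all genes) and 4 in HepG2 (48.3%).

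No factor or Hippo regulator passed 1.5-fold in either line. The largest differences among them were those of LATS2 in Huh7 (0.50) and AJUBA in HepG2 (0.43). SRF differed by 0.22 in Huh7 and 0.07 in HepG2, YAP1 by 0.09 and 0.28, WWTR1 by 0.27 and 0.29 and TEAD1 by 0.06 and 0.04. TEAD4 differed by −0.02 and −0.05, its sign in Huh7 changing in FPKM and under upper-quartile scaling. LATS2 had 15.5 and 22.4 TPM in Huh7 and 3.68 and 4.58 TPM in HepG2 (0.50 and 0.25), and its share of LATS TPM went from 57.6% to 67.3% and from 15.2% to 19.9%. AMOTL1 differed by 0.13 and 0.12, AMOTL2 by 0.19 and by less than 0.001 downward in HepG2, where its sign changed under both scalings and by coverage, and AJUBA by −0.10 and 0.43.

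The siRNA effect over both lines was then fitted in limma with the line as covariate, in which the residual of a gene is the difference of its change between the lines. No gene of 14741 passed an adjusted p of 0.05 and so no member of the 31 tested did. At an unadjusted p under 0.05, 12 members were higher and 1, CRIM1, was lower, beside 4.79% and 6.36% of all genes. Of all genes at that p, 706 were higher and 938 lower, which became 1004 and 762 under upper-quartile scaling. CRIM1 alone was lower in FPKM and with a minimum of 5 TPM as well, and no member was lower under the other alternatives. The 12 were TAGLN, CNN1, CNN2, TPM1, TPM4, MYH9, MYL9, VCL, WWTR1, LATS2, CCN1 and ANKRD1. TPM4 had an effect of 1.02 ± 0.14 (SE, limma adjusted p = 0.130), TAGLN of 1.25 ± 0.24 (adjusted p = 0.174), MYL9 of 0.82 ± 0.15 (adjusted p = 0.165), ANKRD1 of 0.63 ± 0.09 (adjusted p = 0.157) and MYH9 of 0.40 ± 0.07 (adjusted p = 0.165). With FPKM in place of TPM the limma adjusted p was 0.0150 for TPM4 and 0.0237 for ANKRD1, and over all alternatives it ran up to 0.650 for both, so whether these genes pass depends on the unit.

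**Figure D5:**
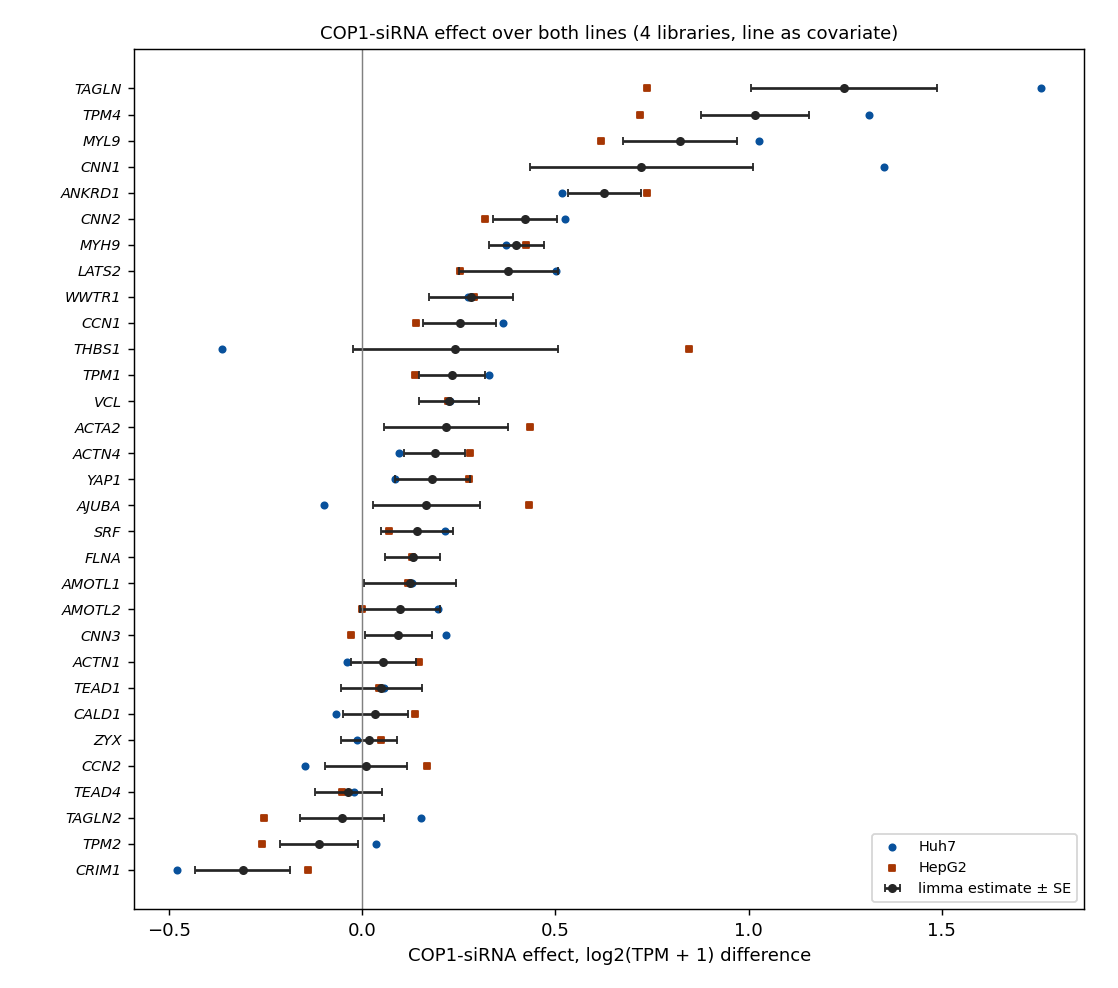
COP1-siRNA effect of the 31 members tested in limma over 4 libraries with the line as covariate, as a difference of log2(TPM + 1), sorted by size, with the estimate ± SE in black and the differences within Huh7 (blue circles) and HepG2 (brown squares, absent where a gene was under 1 TPM in both libraries). TAGLN and TPM4 have the largest estimates, CRIM1 the lowest, and the points of THBS1 lie on either side of 0.

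The wider pathways were read from lists of genes outside the 33. Beside the counts below, 49.9% of all genes were above 0 in Huh7 and 48.3% in HepG2. At least 2-fold higher were 0.638% and 0.54%. Of 32 other actins and actin-binding proteins, 22 of 29 tested were above 0 in Huh7 and 20 of 31 in HepG2 (medians 0.18 and 0.10), and 1 passed 2-fold. That gene was FHL2, a LIM-only cofactor, with 3.61 and 11.6 TPM in Huh7 (1.45) and 6.43 and 12.1 TPM in HepG2 (0.82); by coverage on the TPM scale its differences were 0.49 and 0.19. Of 16 other YAP/TEAD targets, 9 of 13 tested were above 0 in Huh7 and 8 of 11 in HepG2 (medians 0.24 and 0.10). Of these, F3, tissue factor, passed 2-fold in Huh7, at 7.40 and 21.5 TPM (1.42), and stood at 2.47 and 2.32 TPM in HepG2 (−0.06).

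SRF drives immediate-early genes with ternary complex factors. Of these, 1 of 5 tested was above 0 in Huh7 (49.9% of all genes) and 2 of 6 in HepG2 (48.3%). Their medians were −0.23 and −0.16, and none passed 2-fold. The SRF cofactors MRTFA (16.4 and 15.1 TPM in Huh7, 19.0 and 21.2 TPM in HepG2) and MRTFB (3.82 and 4.52 TPM, 7.51 and 7.95 TPM) differed by −0.11 and 0.15 and by 0.20 and 0.07. Of the Hippo core and other YAP partners, 10 of 18 tested were above 0 in Huh7 and 11 of 18 in HepG2, with none past 2-fold. Among the other myosin II genes 3 of 6 were above 0 in Huh7 and 5 of 6 in HepG2, none past 2-fold. The cytoplasmic actin genes went in opposite directions, with ACTB at −0.28 and −0.03 and ACTG1 at 0.33 and 0.11.

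Hepatocyte lineage markers moved beside the members in HepG2, where 11 of 11 were above 0 (median 0.40), beside 48.3% of all genes. FGB, a fibrinogen chain, went from 6.97 to 15.5 TPM there (1.05). In Huh7 3 of 11 markers were above 0 (median −0.06), beside 49.9% of all genes. The fibroblast and smooth muscle list did not move with the members, at 125.6 and 126.0 TPM in Huh7 and 5.91 and 6.19 TPM in HepG2. Whether the shift of the hepatocyte markers bears on the members' values in HepG2 was not tested.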

How the data were processed

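Poly(A) RNA of the 4 libraries was sequenced with a kit that keeps the strand, and all 4 carry the same batch label. The submitters' processing notes name FastQC 0.11.7, Trimmomatic 0.38, HISAT2 2.1.0, StringTie 2.1.3b, edgeR and the build GRCh38, without saying which made which value. For each library the authors deposited 1 gene table. The TPM that the authors deposited sum to 1000000 per library, the deposited FPKM are proportional to them, and the deposited coverage is the mean depth over a gene's bases and not normalized. No deposited file holds read counts, so the precision of a value could not be computed. How reads of overlapping genes were divided is not given in the sources used here.

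The tables give Gene numbers and no gene names, so names were taken from RefSeq (GRCh38.p14), where 44698 of 46427 numbers and all 33 members were found. TPM were summed per Gene number. A fold change was log2((TPM + 1)/(TPM + 1)) for genes at 1 TPM or more in at least 1 library of the pair, and 2-fold was the threshold. Genes at 1 TPM or more in at least 2 of 4 libraries entered limma 3.58.1 (R 4.3.3) with trend, line and siRNA as terms, 1 residual and 4.96 prior degrees of freedom, and Benjamini-Hochberg adjustment over 14741 genes. The computation was tested on simulated data. Changes there were the same in both lines and larger than any siRNA difference of a member. How well smaller differences are recovered was not tested. Promoters of 300 bases were searched for the CArG box (CC, 6 of A or T, GG) and the other motifs. 6 members, TAGLN, MYL9, TEAD1, TEAD4, CCN1 and CRIM1, have none in the table. Python 3.11.15, numpy 2.4.6, pandas 2.3.3 and matplotlib 3.10.9 were used.

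The members, gene lists and families were chosen with earlier results of these data known. The text names all members, COP1, genes of the other lists past 2-fold, ACTB, ACTG1, MRTFA, MRTFB, overlapping genes that bear on a member, and a few list or family genes chosen after their values were seen. 1 further list is not reported here. Alternatives were a pseudocount of 0.1, FPKM, coverage scaled for depth, upper-quartile and median-of-ratios scaling, no minimum and a minimum of 5 TPM, a 1.5-fold threshold, limma without trend, and a CArG box with 1 mismatch.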

Additional observations from a re-analysis of the deposited data

Results flagged for a closer look

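THBS1 was lower with COP1-siRNA in Huh7 and higher in HepG2, in each line by more than 1 SD of the fold changes of all genes tested there. The change in HepG2 minus that in Huh7 was 1.21 on the log2 scale. With 1 library per condition, this difference between the lines was not tested.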

How the results depend on the processing

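Members past 2-fold numbered 4 in Huh7 under every alternative and 0 in HepG2 under all but the 1.5-fold threshold, which gave 5. Every alternative kept a pseudocount, which lowers the fold changes of genes with low levels. The count over all genes, 141 in Huh7 and 135 in HepG2, was 390 and 372 with a pseudocount of 0.1, 57 and 39 in FPKM, 76 and 55 with a minimum of 5 TPM, and 713 and 640 at 1.5-fold. With that minimum, 44.7% of the genes past 2-fold in Huh7 were higher, against 58.9%. Between the lines with COP1-siRNA, the member median of 1.63 was 1.95 under median-of-ratios scaling, and 6058 genes past 2-fold became 9319 past 1.5-fold. For the siRNA effect in limma, genes with an adjusted p under 0.05 numbered 0, but 101 in FPKM, 9 under upper-quartile scaling, 6 under median-of-ratios scaling and 13 with a minimum of 5 TPM. Members numbered 0, but 2 in FPKM, and the 13 members at an unadjusted p under 0.05 became 8 without trend. Member genes with a CArG box rose from 6 to 14 with 1 mismatch, that is from 22.2% to 51.9% of 27. The share of all genes rose from 1.60% to 22.3%. FPKM are proportional to TPM within a library, so that setting changed only a factor per library and the relative weight of the pseudocount. Which of these moved the FPKM counts was not tested. The cause of the other shifts was not tested, beyond the change of threshold, filter, pseudocount or motif itself. The member medians kept their sign under every alternative. No paired analysis beyond the line term was possible because each condition had 1 library, and no library could be left out. Without counts, small differences cannot be set against counting error.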
